A study of Mus musculus with 6 samples.

Results

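Capg and its relatives of the gelsolin family of actin regulators were followed in 6 RNA libraries of mouse pancreatic tumour organoids, epithelial cultures embedded in Matrigel domes. The 6 genes were Capg, Gsn, Scin, Flii, Svil and Avil, matched by symbol in the authors' deposited table of 23525 named genes. All 6 were among the 14537 genes with enough counts to be tested, and 53379 genes were annotated in all. The organoids came from tumours of mice of the strain labelled C57/Bl6. Every mouse carried Pdx1-Cre, which switches on floxed alleles in the Pdx1 lineage of the pancreas. The 3 organoid lines, numbered 6, 23 and 34, each gave 1 heterozygous library (Trp53LSLR172H/+, the R172H mutant beside a wild-type allele, n = 3). Each line also gave 1 library with loss of heterozygosity (LOH, Trp53LSLR172H/-, n = 3). The sample descriptions of the LOH libraries add the suffix Nut, which no label explains, so whatever it stands for and the loss of the allele cannot be told apart.

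Proteins of this family are built from repeats of the gelsolin domain, which binds actin when calcium rises and lets go when it meets phosphoinositides. Some members sever actin filaments, most cap the fast-growing barbed end, and a few carry a further headpiece with which they bundle filaments. In epithelia they shape the cell cortex, ruffles and microvilli, and gelsolin also circulates in plasma. Capg is the member that caps filaments without severing them.

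Capg was chosen by its p, among the smallest in the comparison of LOH with heterozygous libraries; its relatives were listed with results of that comparison known. Levels of the 6 genes in that comparison are therefore given as a description, without p-values. Actin regulators outside the 6 genes were tested.

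Sequences just upstream of annotated starts are shown for the 3 members with the highest fold changes, and for 2 starts of Gsn, whose use decides whether gelsolin is kept in the cell or secreted. They come from RefSeq windows of GRCm38.p6, written 5′ to 3′ on the strand of the gene. Windows were found for 5 of the 6 members (Svil excepted). The window before a middle RefSeq start of Gsn, which held 1 GC box, is not printed. Capitals mark the GC box GGGCGG on either strand. For Capg the window before the RefSeq start overlaps an annotated exon, and only the bases after that exon are printed. That start lies downstream of the start to which most Capg reads were assigned, so the stretch is intronic in those transcripts.
Capg, chr6:72549502-72549646, plus strand: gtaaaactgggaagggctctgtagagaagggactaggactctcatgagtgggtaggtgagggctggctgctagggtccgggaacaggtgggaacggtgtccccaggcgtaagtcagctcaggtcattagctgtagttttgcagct
Scin, chr12:40134229-40134478, minus strand: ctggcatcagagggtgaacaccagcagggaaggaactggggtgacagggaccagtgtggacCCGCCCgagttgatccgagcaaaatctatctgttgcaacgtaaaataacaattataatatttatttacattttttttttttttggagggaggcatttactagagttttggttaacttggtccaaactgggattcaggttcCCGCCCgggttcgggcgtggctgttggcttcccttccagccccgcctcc
Avil, chr10:127000459-127000708, plus strand: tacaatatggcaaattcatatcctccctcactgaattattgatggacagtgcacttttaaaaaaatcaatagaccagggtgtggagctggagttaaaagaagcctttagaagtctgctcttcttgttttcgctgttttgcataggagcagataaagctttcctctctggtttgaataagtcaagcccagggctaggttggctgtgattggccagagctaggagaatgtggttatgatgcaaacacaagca
Gsn, upstream start, chr2:35256109-35256358, plus strand: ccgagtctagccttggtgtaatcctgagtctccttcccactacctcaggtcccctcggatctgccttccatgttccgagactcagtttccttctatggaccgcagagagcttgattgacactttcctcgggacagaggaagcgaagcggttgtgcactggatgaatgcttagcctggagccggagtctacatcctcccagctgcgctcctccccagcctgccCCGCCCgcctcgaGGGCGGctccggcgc
Gsn, start of the secreted form, chr2:35282130-35282379, plus strand: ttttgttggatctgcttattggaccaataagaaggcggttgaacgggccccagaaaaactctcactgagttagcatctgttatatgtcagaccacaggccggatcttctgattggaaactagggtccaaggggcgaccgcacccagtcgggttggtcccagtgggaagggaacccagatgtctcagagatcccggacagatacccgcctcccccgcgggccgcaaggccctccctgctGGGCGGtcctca

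Over the whole 250 bases before each of these 5 starts and that of Flii, 6 motifs were searched on both strands. They were the TATA box TATAAA, the GC box GGGCGG, the AP-1 site TGANTCA, the antioxidant response element core TGACNNNGC, the CArG box and the p53 half-site. Only the GC box was matched. It occurred 2 times before Scin and 2 times before the upstream start of Gsn, and 1 time before the start of the secreted form. The windows of Capg, Avil and Flii held none of the 6 motifs. Of all 32851 RefSeq windows, 32.7% held a GC box, 12.4% a TATA box, 10.2% the antioxidant response element core, 7.13% a p53 half-site, 6.75% an AP-1 site and 1.47% a CArG box. The Avil window had a GC content of 42.0%, the Scin window 49.2% and the Capg window 57.6%, against a median of 52.4% over all windows.

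Trp53, the gene whose wild-type allele is labelled as lost, had 77.3, 76.3 and 86.5 CPM in heterozygous lines 6, 23 and 34 and 73.5, 52.5 and 47.4 CPM with LOH. Each LOH library was lower, but the mutant allele is counted too, so gene totals cannot check the labels fully. Total expected counts per library ran from 13680458 to 27917277. A count of 3 equalled between 0.1 and 0.223 CPM (counts scaled to library size). The cultures carried epithelial markers, with Epcam, Cdh1, Krt7, Krt8, Krt18, Krt19 and Sox9 summing to between 5091 and 11166 CPM. Genes of the protein-coding table took 67.9% to 73.3% of counts in heterozygous and 61.4% to 67.2% in LOH libraries. The total of TPM (scaled for transcript length and library) covers all transcripts. On the TPM scale, log2(TPM + 1), the median gene shifted by -0.37 relative to CPM. The part of the gap in protein-coding share in this shift was not tested. Values below are given on both scales where the scale matters.

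Capg (ENSMUSG00000056737.14, chromosome 6, 72544391 to 72562983, plus strand) was nearly level across the heterozygous lines and many-fold higher in each LOH library. Heterozygous lines 6, 23 and 34 had 15.01, 18.4 and 17.4 CPM, with 450, 248 and 520 counts behind them. With LOH the same lines reached 219, 395 and 269 CPM, on 3769, 10469 and 5781 counts. The groups were far apart: the lowest LOH library, line 6, lay 11.9 times above the highest heterozygous library, line 23. Within lines 6, 23 and 34 the LOH library held 14.6, 21.5 and 15.5 times the heterozygous level. The means were 16.9 ± 1.73 and 294.6 ± 90.6 CPM (SD, n = 3 each), and the edgeR log2 fold change was 4.12 (SE 0.28). On the TPM scale the heterozygous libraries had 17.4, 16.9 and 17.6 and the LOH libraries 189, 312 and 197. Capg was thus ranked between 4252 and 4916 of all genes by TPM in heterozygous libraries, and between 233 and 394 in LOH libraries. Bulk libraries cannot tell fewer or more cells with a transcript from less or more transcript per cell.

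**Figure D1:**
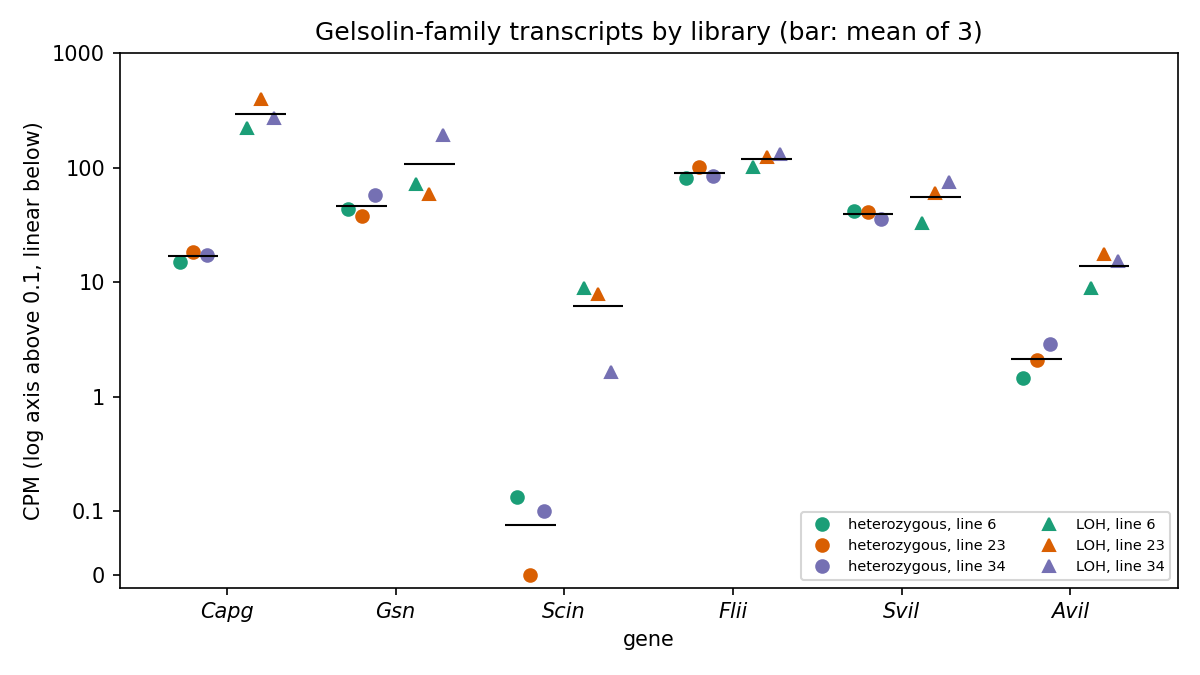
CPM of the 6 genes (vertical axis, logarithmic above 0.1 and linear below) in each library. Circles are heterozygous, triangles LOH libraries, colours give the organoid line and bars the mean of 3. Capg, Scin and Avil show a wide gap between circles and triangles, while the triangles of Svil lie on both sides of its circles.

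Scin (scinderin or adseverin, ENSMUSG00000002565.16, chromosome 12, 40059769 to 40134228, minus strand) encodes a calcium-dependent severing protein best known from secretory cells. It was at or near the counting limit in heterozygous libraries, with 4, 0 and 3 counts in lines 6, 23 and 34 (0.133, 0 and 0.1 CPM). The LOH libraries had 154, 207 and 35 counts, or 8.96, 7.81 and 1.63 CPM. All LOH libraries lay above all heterozygous libraries, and LOH line 34 was several-fold below the other two. With 3 counts put in place of the 0 counts of heterozygous line 23, that line was 35.1-fold higher with LOH. This is not a lower bound. The exact 95% counting interval reached up to 0.274 CPM in heterozygous line 23 and down to 6.79 CPM in LOH line 23. The ratio was 67.2 in line 6 (exact 95% counting interval 25.7 to 250) and 16.3 in line 34 (5.13 to 82.7). The intervals cover counting error only. Even in the LOH libraries Scin stayed a minor transcript, at 2.98, 2.37 and 0.45 TPM.

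Avil (advillin, ENSMUSG00000025432.11, chromosome 10, 127000709 to 127020994, plus strand) is a villin relative of sensory neurons and tuft cells. It had 1.47, 2.08 and 2.9 CPM in heterozygous lines 6, 23 and 34, on 44, 28 and 87 counts. With LOH it reached 8.85, 17.6 and 15.3 CPM, on 152, 465 and 328 counts. The lowest LOH library was 3.05 times the highest heterozygous one. The log2 fold change was 2.69 (SE 0.39), with ratios of 6.03, 8.45 and 5.26 in lines 6, 23 and 34. Avil overlaps Tsfm on the opposite strand, and whether the authors' counting used strand is not given in the sources used here.

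Gsn (gelsolin, ENSMUSG00000026879.14, chromosome 2, 35256380 to 35307892, plus strand), the founding member, severs and then caps filaments. Heterozygous lines 6, 23 and 34 had 43.4, 37.8 and 57.7 CPM, and the LOH libraries 71.5, 58.4 and 192.7 CPM. The groups nearly touched, at 57.7 and 58.4 CPM, and LOH line 34 stood apart from the other libraries. The log2 fold change was 1.21 (SE 0.47), and 0.48 without LOH line 34. Within lines the ratio was 1.65, 1.55 and 3.34. On the TPM scale the groups overlapped, with 22.9, 18.2 and 27.1 in heterozygous and 28.7, 22.8 and 70.2 in LOH libraries.

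Flii (flightless, ENSMUSG00000002812.4, chromosome 11, 60714123 to 60727263, minus strand) joins gelsolin repeats to leucine-rich repeats and is also known as a nuclear receptor coactivator. It varied little among libraries. Heterozygous lines 6, 23 and 34 had 81.8, 100.7 and 84.6 CPM, and LOH libraries 100.8, 123.5 and 130.8 CPM. The lowest LOH and the highest heterozygous library were thus almost equal. The log2 fold change was 0.41 (SE 0.19) in CPM and 0.02 on the log2(TPM + 1) scale, or 0.39 once the shift of the median gene was taken off. In TPM the libraries had 27.8, 27.98 and 25.5 without LOH and 25.2, 30.2 and 27.4 with it, so line 6 was lower and lines 23 and 34 were higher with LOH, and the groups overlapped. The last bases of Flii overlap Llgl1 on the opposite strand.

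Svil (supervillin, ENSMUSG00000024236.18, chromosome 18, 4920540 to 5119299, plus strand) ties actin and myosin to the membrane. In CPM it was the 1 member whose lines moved in opposite directions. Heterozygous lines 6, 23 and 34 had 41.8, 41.3 and 35.4 CPM, close to each other. The LOH libraries had 32.9, 59.4 and 75.3 CPM, line 6 below and the other lines above every heterozygous library. The log2 fold change was 0.50 (SE 0.31) in CPM and 0.04 on the log2(TPM + 1) scale, or 0.40 after the shift was taken off.

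**Figure D2:**
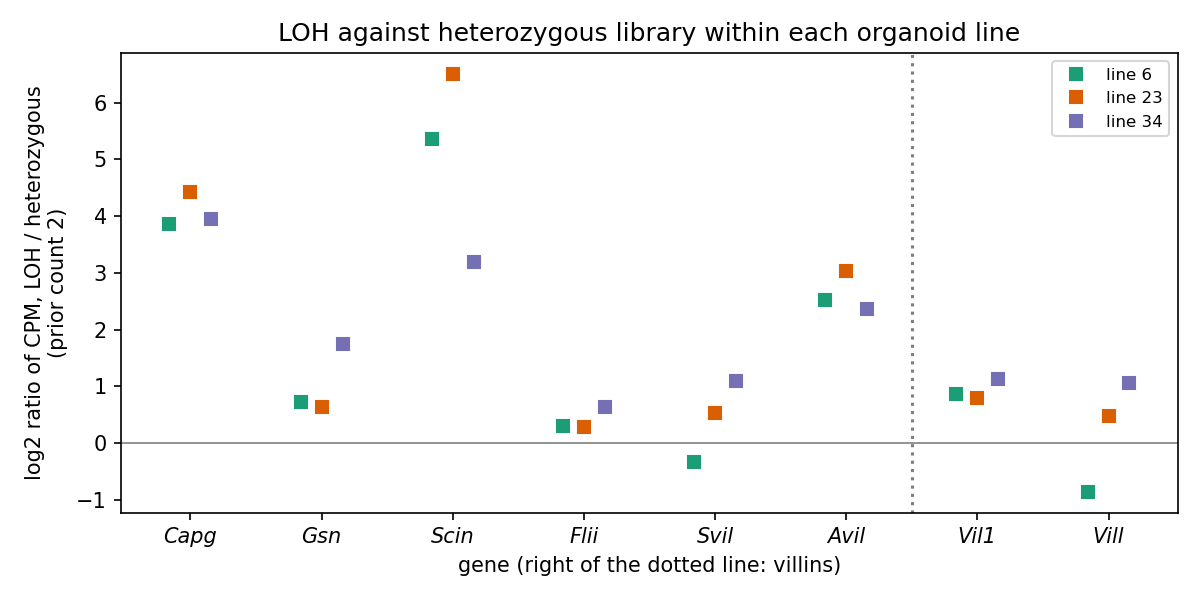
Log2 ratio of CPM (prior count 2) of the LOH over the heterozygous library of each organoid line, for the 6 genes and, right of the dotted line, the villins Vil1 and Vill. Squares are lines; Capg lies between 3.86 and 4.42, and Svil and Vill have line 6 below 0 and the other lines above.

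Set side by side in CPM, 5 of the 6 members had every LOH library above every heterozygous library, and Svil did not. Of all genes tested, 16.4% showed that separation upward. In TPM 3 of the 6 did so, namely Capg, Scin and Avil. The median log2 fold change of the members was 1.95, with 4 of 6 at 1 or more, against a median of 0.06 and 14.9% at 1 or more over all genes tested. The members were listed with this contrast in view, so nothing is read from these counts.

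The make-up of the family by length-scaled level changed with Capg. In heterozygous libraries Flii had 25.5 to 27.98 TPM and Gsn 18.2 to 27.1, and these neighbours changed places in line 34. Capg followed at 16.9 to 17.6 TPM, then Svil at 7.57 to 10.5, Avil at 0.75 to 1.23 and Scin at 0 to 0.07. Capg thus made up 21.9%, 23.4% and 22.4% of the summed TPM of the 6 genes in lines 6, 23 and 34. In the LOH libraries its share was 74.0%, 81.4% and 63.3%, and it ranked first in each. Gsn and Flii overlapped as its next neighbours, and Svil, Avil and Scin kept their order. The summed TPM of the family went from 72.3 to 79.5 in heterozygous to between 255.8 and 383.3 in LOH libraries.

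**Figure D3:**
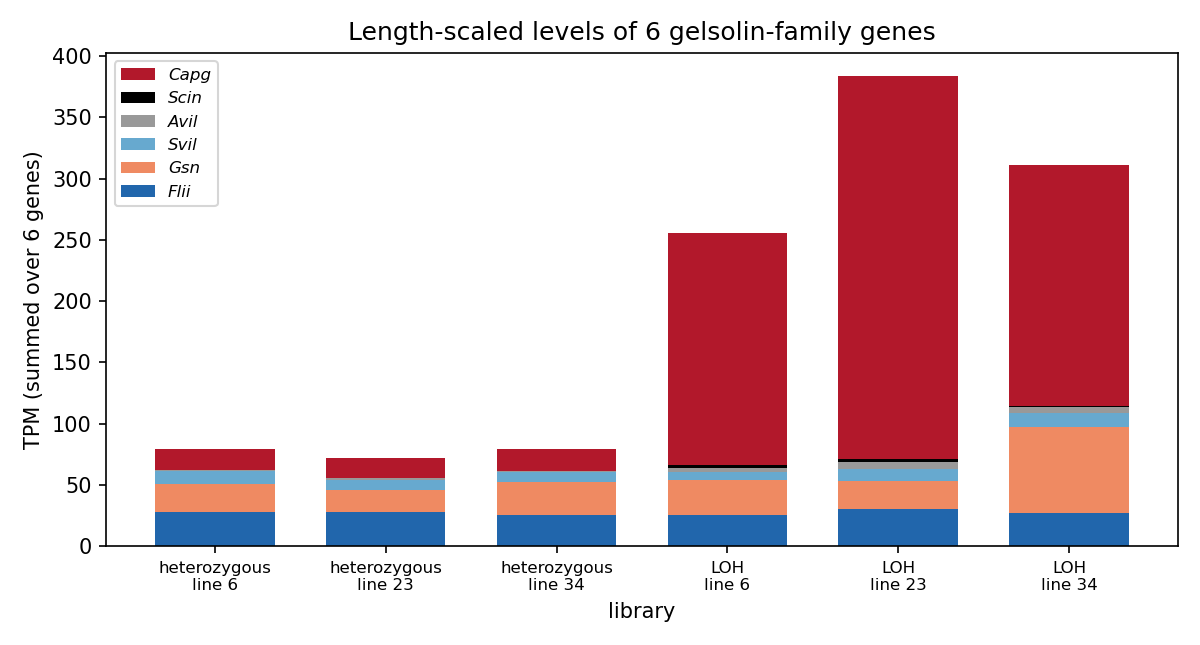
TPM of the 6 genes stacked for each library (vertical axis, from 0; heterozygous libraries left, LOH right). Most of the added height in the LOH libraries is Capg, with Gsn adding to it in line 34.

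Capg could also be set against the heterodimer CapZ (Capza1 or Capza2 with Capzb), the general barbed-end capper of most cells. The TPM of Capg was 0.182, 0.207 and 0.242 of that of Capzb in heterozygous lines 6, 23 and 34, and 4.02, 7.87 and 3.36 times it in the LOH libraries. Against Capza1 and Capza2 summed it was 0.113, 0.139 and 0.128, and 1.26, 2.88 and 1.38 times with LOH. Against Vil1, the villin of the brush border, the order also turned. Vil1 had 2.76, 3.03 and 2.36 times the TPM of Capg in heterozygous libraries and 0.332, 0.235 and 0.336 times in LOH libraries.

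Transcript tables showed which forms made up each gene. RSEM divides reads shared between transcripts by estimate, so small shares are uncertain. Of the 11 annotated Capg transcripts 10 received counts, and most of the reads fell on forms that share the full coding sequence of 349 codons and differ in the first exon. Transcripts starting at chromosome 6, 72544391 or at other upstream first exons took 76.9%, 63.4% and 80.2% of the Capg TPM in heterozygous lines 6, 23 and 34. They took 69.4%, 82.8% and 81.4% in the LOH libraries. The 2 groups overlapped, so the upstream and the downstream starts were both higher with LOH: downstream forms had 3.5 to 6.17 TPM in heterozygous and 36.7 to 57.9 TPM in LOH libraries.

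For Gsn almost all signal came from the upstream start, whose main form Gsn-205 encodes the intracellular protein of 731 codons. The start of the secreted form, with Gsn-201 (780 codons) and the non-coding Gsn-202, took 1.0%, 0% and 3.47% of the Gsn TPM in heterozygous lines 6, 23 and 34. It took 9.27%, 1.54% and 3.87% in the LOH libraries. The groups overlapped, and LOH line 6 had the highest share, with 121 estimated counts. Gsn-201 alone had 0.23, 0 and 0.94 TPM in heterozygous lines 6, 23 and 34 and 2.66, 0.17 and 2.6 TPM with LOH. In LOH line 34, where Gsn stood apart, Gsn-205 had 55.7 TPM, against 24.0 TPM in heterozygous line 34.

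Scin counts were assigned to Scin-201 (715 codons) in all LOH libraries and to the shorter Scin-202 (615 codons) in heterozygous lines 6 and 34, where they numbered 4 and 3. Flii was mostly Flii-201 (1271 codons), at 88.6% to 96.3% of its TPM. Svil was mostly Svil-211 (1766 codons), at 64.1%, 71.2% and 65.3% in heterozygous lines 6, 23 and 34 and 50.1%, 67.5% and 72.8% in LOH libraries. The longer Svil-203 (2170 codons) and Svil-204 (2056 codons) took at most 9.0% of the TPM each. Non-coding forms with a retained intron took more of the TPM. Svil-206 had 7.64% to 20.9% of it, most in LOH line 6, and Svil-208 had 0% to 12.8%. In counts Svil-206 took 1.99% to 5.98%, less than Svil-203 in each library, which took 5.92% to 13.1%. Svil-211 held 65.8% to 87.0% of the counts. Avil-201 (819 codons) held 95.2% to 100% of Avil counts and 57.7% to 100% of its TPM.

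**Figure D4:**
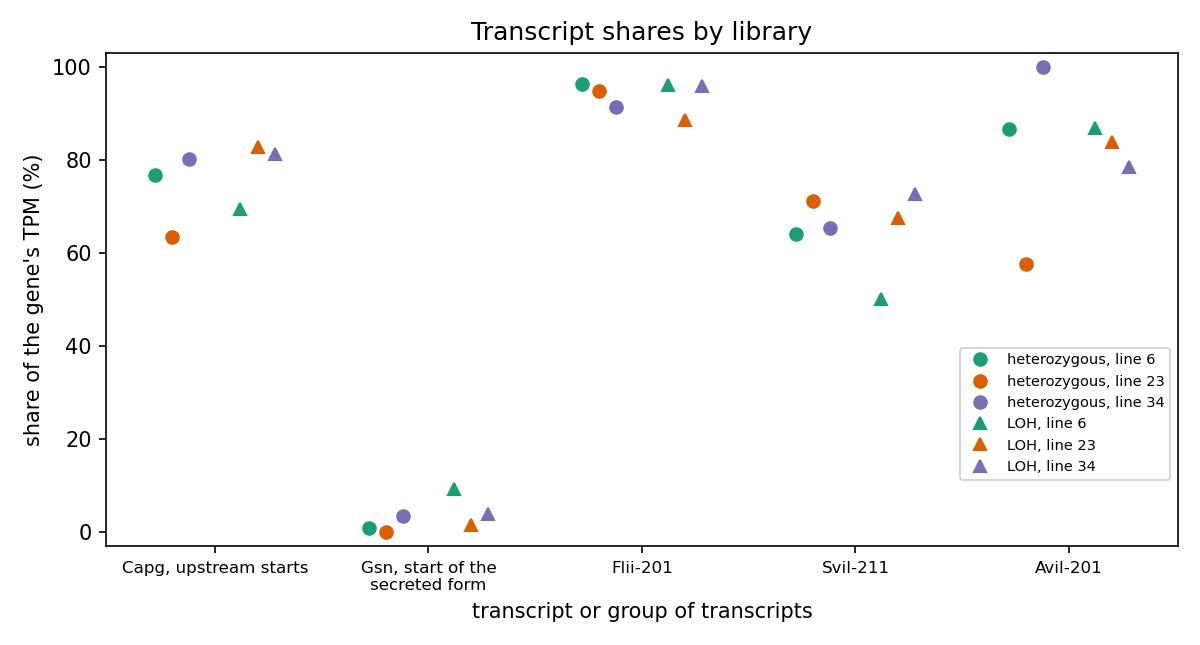
Share of the gene's TPM (vertical axis, percent) taken by the upstream starts of Capg, the start of the secreted form of Gsn and the main forms of Flii, Svil and Avil, in each library (circles heterozygous, triangles LOH). Circles and triangles overlap for each of them.

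Actin regulators outside the 6 genes were counted from a list of 109 genes in 7 classes, of which 99 were tested. By edgeR's quasi-likelihood method, with Benjamini-Hochberg adjustment over all genes, 4 of the 99 rose and 0 fell, or 4.04%. The background was 5.21% of all genes tested (3.55% higher and 1.66% lower in LOH). At an unadjusted p under 0.05 there were 28 of 99, where all genes tested gave 25.3%. DESeq2 called 17 of 99, where all genes gave 15.7%. The list's median log2 fold change was 0.33, with 65 of 99 above 0, beside a median of 0.06 and 54.0% above 0 over all genes. With the organoid line as a block 0 of the 99 passed, where 1.47% of all genes did. At an unadjusted p under 0.05 that block gave 21 of 99, where all genes gave 20.0%. Without any 1 heterozygous library the unblocked test called 0 of them, with 14 to 19 at an unadjusted p under 0.05. Over all genes it then also called 0, with 2272 to 2966 of 15113 to 15319 genes at an unadjusted p under 0.05. Without LOH line 6 it called 11 of 99, where 2449 of all 15132 genes were called.

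The 4 genes that rose were Vil1, Eps8l3, Tmsb4x and Espn. Vil1 (villin), a gelsolin relative outside the 6 genes, bundles and, with calcium, severs the filaments of microvilli. It had 107, 144 and 112 CPM in heterozygous lines 6, 23 and 34 and 194, 248 and 243 CPM in LOH libraries, without overlap. It gained 0.92 on the log2 scale (SE 0.20), at an edgeR adjusted p of 0.0481, and of 0.113 with the block. The call of Vil1 was also lost without the filter on low counts (adjusted p 0.0552). With limma on log2(TPM + 1) its log2 fold change was 0.52 (adjusted p 0.1), and 0.12 was the adjusted p on log2(TPM + 0.1). Vill, the villin-like relative, had 22.2, 27.5 and 20.1 CPM against 12.2, 38.2 and 42.0 CPM. Its log2 fold change of 0.41 (SE 0.44) had an edgeR adjusted p of 0.584, was -0.25 on the log2(TPM + 1) scale, and its adjusted p was 0.048 without LOH line 6 (log2 fold change 0.75).

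The class named barbed-end cappers had 16 genes and also took in Carmil1, Carmil2, Carmil3 and Cd2ap. In it Eps8l3, of the Eps8 family, rose from 40.2 ± 9.41 to 142.0 ± 27.9 CPM (SD, n = 3 each). This was 1.82 on the log2 scale (SE 0.25), at an edgeR adjusted p of 0.0184, and of 0.0534 with the block. The CapZ subunits Capza1, Capza2 and Capzb had log2 fold changes of 0.45, 0.12 and -0.29 and did not pass (edgeR adjusted p 0.177, 0.762 and 0.453). The median of the class was 0.68, with 12 of 16 above 0 and 7 of 16 at an unadjusted edgeR p under 0.05. Over all genes tested the median was 0.06, with 54.0% above 0 and 25.3% at an unadjusted p under 0.05.

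Among 4 monomer-binding genes, Tmsb4x (thymosin beta), which holds actin monomers in reserve, rose from 97.7 ± 13.1 to 319.7 ± 106.1 CPM (SD, n = 3 each). On the log2 scale it gained 1.71 (SE 0.28), at an edgeR adjusted p of 0.0272, and of 0.0846 with the block. Profilin Pfn1 had one of -0.28 (SE 0.18) and did not pass (edgeR adjusted p 0.355). Among 17 crosslinkers and membrane linkers, Espn (espin), a bundler of microvilli, had 0.50, 0.67 and 0.50 CPM in heterozygous and 1.57, 5.17 and 8.2 CPM in LOH libraries. It changed by 3.17 on the log2 scale (SE 0.64), at an edgeR adjusted p of 0.0399, and of 0.0917 with the block. Leaving out LOH line 23 or LOH line 34 took the adjusted p of Espn to 0.0794 and 0.0611, and that of Vil1 to 0.0911 and 0.0773.

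The class named severing and disassembly also took in regulators such as Limk1 and Limk2. None of its tested genes (0 of 21, with 4 at an unadjusted p under 0.05 and a median of 0.34) passed in the edgeR test. Neither did nucleation and elongation (0 of 30, 7 and 0.17) or the actins, tropomyosins and pointed-end cappers (0 of 9, 2 and -0.04). The monomer-binding genes had 2 of 4 at an unadjusted p under 0.05, and the crosslinkers and membrane linkers 5 of 17. Over all genes tested, 25.3% had an unadjusted p under 0.05. The severing protein cofilin, Cfl1, had a log2 fold change of -0.10 (SE 0.18), and the main actins Actb and Actg1 -0.09 (SE 0.21) and 0.01 (SE 0.18). Their edgeR adjusted p-values were 0.749, 0.808 and 0.991. On the log2(TPM + 1) scale limma called 7 of the 90 tested genes of the list, 2 higher and 5 lower, where 1790 of all 11918 genes were called and the median gene shifted as above.

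**Figure D5:**
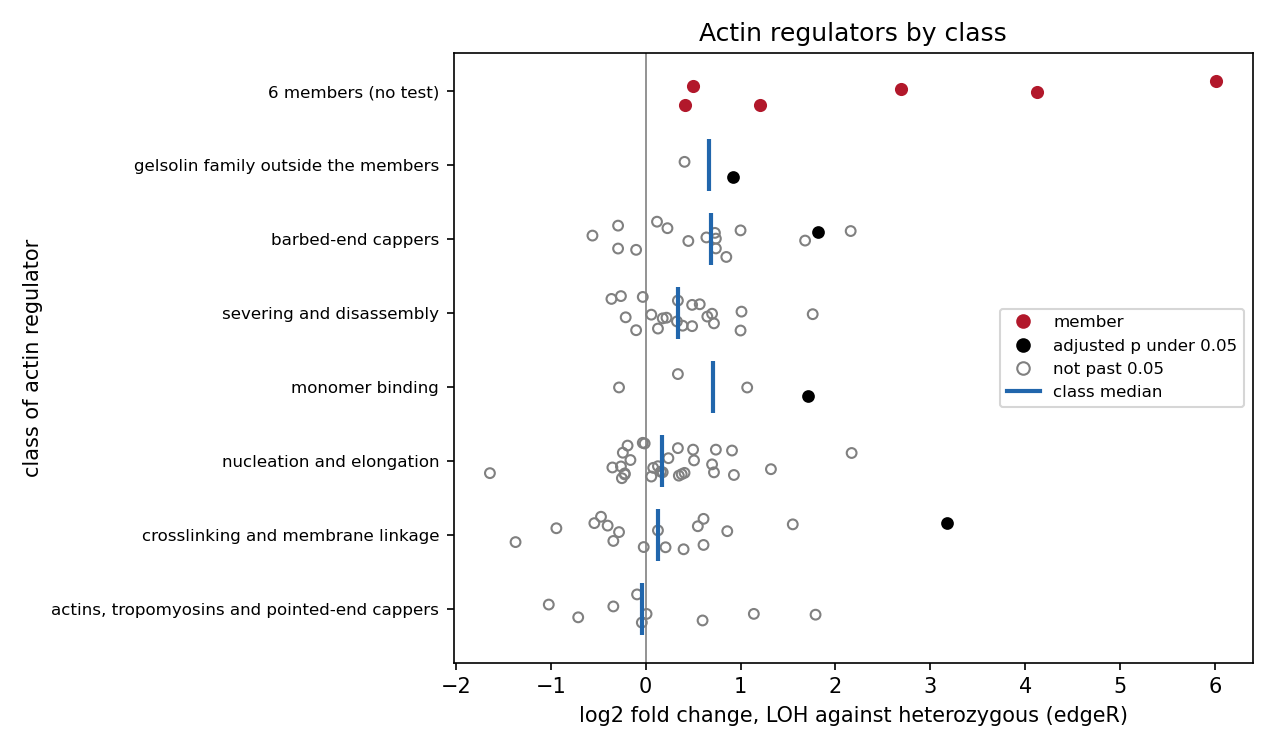
Log2 fold change of LOH against heterozygous libraries (horizontal axis, edgeR) for the 6 genes (red, no test) and 99 tested actin regulators by class. Filled black points have an adjusted p under 0.05, open points do not, and blue lines are class medians, which lie between -0.04 and 0.70.

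Around Capg on chromosome 6, none of the 5 tested genes on either side passed in the edgeR test (0 of 10). At an unadjusted p under 0.05 there were 4 of 10, and DESeq2 called 1, where all genes tested gave 25.3% and 15.7%. The neighbours before it were Vamp5, Vamp8, Ggcx, Mat2a and Particl, and after it Elmod3, Retsat, Gm45053, Tgoln1 and Kcmf1. Their log2 fold changes ran from -0.74 for Mat2a, which makes S-adenosylmethionine, to 1.02 for Gm45053, with a median of 0.52. The nearest, Elmod3, ends 2.94 kb beyond Capg and had one of 0.58 (SE 0.22, edgeR adjusted p 0.164). Tgoln1, a trans-Golgi protein, went from 122.9 ± 6.48 to 231.3 ± 55.4 CPM (SD, n = 3 each; edgeR adjusted p 0.0578).

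Genes with the profile most like that of Capg were ranked by the root mean square distance of centred log2 CPM over the 6 libraries, among 12678 genes whose mean reached 1 CPM. The nearest was Myo7b, an unconventional myosin of microvilli, at a distance of 0.285, with 3.2, 5.12 and 4.47 CPM in heterozygous and 39.8, 63.5 and 51.9 CPM in LOH libraries. Apobr (0.36), Pax9 (0.393), Trpm6 (0.413) and Entpd8 (0.438) followed. All 5 share the separation of the groups with Capg, which dominates such a distance over 6 libraries. Avil, at 0.77, was the nearest member and ranked 67th; Scin was at 1.04 and Gsn, Flii and Svil between 1.67 and 1.86.

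Several members are also known from other cell types, so markers were read in the same libraries. Of 16 macrophage and leukocyte markers, 13 stayed below 1 CPM in every library, and Adgre1, Lyz2, Tyrobp, C1qa, C1qb and C1qc had 0 counts in all 6. Their summed level ran from 48.5 to 50.5 CPM in heterozygous and from 38.3 to 87.0 CPM in LOH libraries, nearly all from Cd14, Cd68 and Mrc1. Mrc1 rose (log2 fold change 3.50, edgeR adjusted p 0.0279). Cd68 had 1.70, 1.78 and 1.84 CPM in heterozygous lines 6, 23 and 34 and 2.97, 6.95 and 14.7 CPM with LOH. Its log2 fold change was 2.21 (edgeR adjusted p 0.0713), and that of Cd14 was -0.56 (edgeR adjusted p 0.252). Of 11 fibroblast markers, 10 stayed below 1 CPM, and Col3a1 and Thy1 had 0 counts in all 6 libraries. Their sum ran from 0.634 to 0.816 CPM and from 3.26 to 13.3 CPM, mostly Fbln1, which rose (log2 fold change 3.71, edgeR adjusted p 0.0279). The part of such cells in the levels of Capg, Gsn and Scin was not tested.

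For the tuft cell, in which Avil is a known marker, 10 of 14 other markers stayed below 1 CPM, and Gfi1b, Chat, Il25, Gnat3, Plcb2 and Rgs13 had 0 counts in all 6 libraries. The sum ran from 52.1 to 56.9 CPM in heterozygous and from 45.2 to 85.6 CPM in LOH libraries, mostly Ptgs1. LOH line 23, the library with the most Avil, had 449 counts of Dclk1 and 26 of Pou2f3, against at most 15 and 6 in any other library. Other markers of the list did not follow: Sh2d6 had 0 counts there and 33 in LOH line 6, and Trpm5 had 7 there and 14 in heterozygous line 6. The part of such cells in the Avil level was not tested. Of 6 smooth muscle markers all stayed below 1 CPM, with sums of 0.965 to 1.07 and 0.831 to 1.51 CPM. The 5 endothelial markers, 4 of them below 1 CPM throughout, summed to 0.297 to 0.634 and 0.378 to 1.54 CPM.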

How the data were processed

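RNA from organoids was made into 6 stranded total RNA libraries, per the labels. The submitters' processing notes name STAR 2.5.2b, RSEM 1.3.0, FastQC 0.11.5, DESeq2 1.44.0 and the build GRCm38.p5. The authors deposited expected counts (estimated, not always whole) and TPM per gene and transcript, and per transcript its percent of the gene's TPM. The deposited normalized counts, a signal scaled per library, served to name genes. Effective gene lengths, another kind of deposited value, were not needed for any test. The deposited tables carry GENCODE release 16 in their names. Coordinates came from GENCODE release 21 (GRCm38), which held 53274 of the 53379 identifiers without version suffix.

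Libraries were grouped by title. A further allele that both groups share is not reported here. Expected counts were rounded, filtered with filterByExpr, normalized with TMM and compared by the quasi-likelihood F test (edgeR 4.0.16, R 4.3.3), adjusted by Benjamini-Hochberg (threshold 0.05). Log2 CPM used a prior count of 2, and the SE is the log2 fold change over the square root of F. Alternatives used RLE scaling, other filters, the line as a block, DESeq2 1.42.0, limma 3.58.1 on TPM, and each library left out. The fit was tested on simulated data. Each group has 1 library per line, so p-values measure the spread between 3 lines and hold no repeat culture of a line. Equal numbers mark 1 organoid line and so pair the libraries. As a check, deviations from group means correlated at -0.3, 0.01 and 0.29 across genes in lines 6, 23 and 34. Pairs of different lines ran from -0.39 to 0.3, so by this measure libraries of 1 line were no more alike.

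The members and the lists were chosen with earlier results of these data known. Named genes were the members, Vil1 and Vill, listed actin regulators past 0.05, 5 tested genes on either side of Capg and the 5 nearest profiles. Cfl1, Pfn1, Actb, Actg1 and CapZ were added to these after their values were seen, as was Trp53 to check the labels. Markers of other cell types were named where their values bear on a member, and those singled out were picked after their values were seen. Python 3.11.15, pandas 2.3.3, numpy 2.4.6, scipy 1.17.1 and matplotlib 3.10.9 made tables and figures.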

Additional observations from a re-analysis of the deposited data

Results flagged for a closer look

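Svil and Vill were singled out because line 6 went down with LOH while lines 23 and 34 went up. With a single library per genotype in a line, this contrast of lines was not tested. The log2 ratios of LOH over heterozygous CPM were -0.34, 0.52 and 1.09 for Svil in lines 6, 23 and 34, a distance of 1.43 between the highest and the lowest line. For Vill they were -0.86, 0.48 and 1.06, a distance of 1.92. In both genes line 6 was the lower one and line 34 the highest.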

How the results depend on the processing

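The log2 fold changes of the 6 members stayed above 0 under every alternative that gave a value, and 84 such values moved by less than 1 SD between replicates while 9 moved more. The TPM fits moved Capg to 3.64 with log2(TPM + 1) and 3.70 with log2(TPM + 0.1), Flii to 0.02 in both, Svil to 0.04 in both and Avil to 1.49 and 2.10. There the median gene shifted by -0.37 and -0.43. Relative to it, Capg was at 4.0 and 4.13 and Avil at 1.86 and 2.53. Scin was not in the TPM fits or under at least 10 counts in every library. With 1 library left out, the ranges were 3.85 to 4.26 for Capg, 0.48 to 1.51 for Gsn, 5.59 to 6.44 for Scin, 0.33 to 0.50 for Flii, 0.22 to 0.73 for Svil and 2.44 to 2.97 for Avil.

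Counts of called genes moved more. Over all genes 757 passed in edgeR (516 higher), 213 with the organoid line as a block (177 higher), 2281 with DESeq2 (1387 higher), and 1790 and 1214 with limma on log2(TPM + 1) and log2(TPM + 0.1) (282 and 249 higher). With 1 library left out it was 0 to 2449, and 0 without any heterozygous library (2272 to 2966 at an unadjusted p under 0.05). With both libraries of a line left out, chosen after seeing the data, it was 1422 without line 6 and 0 without line 23 or 34 (2253 and 2097 unadjusted). For the actin regulators, 4 genes were called in the main fit, 0 with the block, 17 with DESeq2 and 7 in each TPM fit. All 4 were among the 17, and 2 of the 4 among each 7, of which 5 were lower in LOH. With 1 library left out the number ran from 0 to 11. It was 2 without LOH line 23 and 7 without LOH line 34, 2 of these 7 being among the 4. All genes gave 451 and 796 there. Without both libraries of line 6 it was 6, and 0 without line 23 or 34 (15 and 17 unadjusted). Of the genes flanking Capg, 1 passed with DESeq2, 1 with log2(TPM + 1) and 0 to 2 with 1 library left out. Vill turned to -0.25 and -0.29 in the TPM fits. Among the named actin regulators and flanking genes, the block changed no call other than those of Vil1, Eps8l3, Tmsb4x and Espn. The cause of these moves was not tested.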
